A study of Macaca mulatta with 10 samples.

Results

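The Wnt pathway genes described here are the secreted Wnt ligands, their cell surface receptors, the secreted proteins that block them and the cytoplasmic and nuclear proteins that carry the signal. They were chosen by annotated symbol alone. The symbols were WNT, FZD, SFRP, DKK, AXIN, DVL or TLE followed by a digit, together with CTNNB1, APC, GSK3A, GSK3B, LRP5, LRP6, TCF7, TCF7L1, FRZB, WIF1, PORCN, CTBP1 and CTBP2. Of the 11963 genes measured, 50 met the rule: 13 ligands, 9 Frizzled receptors, 2 co-receptors, 9 secreted inhibitors, 8 cytoplasmic genes and 9 nuclear genes. FZD8 and WNT3 had only probe sets shared with other genes, no probe set was listed for TCF7 and PORCN, and these 4 genes were not analysed here.

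Transcript levels were measured in small tissue punches of 5 nuclei of the dorsal thalamus of adult rhesus monkeys (Macaca mulatta) that had received no treatment. The nuclei, as the labels name them, were Ventral Thalamus, Medial Thalamus, Centre Median, Anterior Thalamus and Pulvinar, each with 2 arrays numbered as replicates 1 and 2. Biotin-labelled total RNA was measured on Affymetrix U133A arrays, whose short oligonucleotide probes were designed for human transcripts. The labels give neither the number nor the sex or age in years of the animals and do not say whether punches were pooled, so p-values measure only the spread between these arrays. Levels are given as log2(intensity + 1) of the authors' RMA-normalised intensities, on which a difference of 1 is a 2-fold difference. A probe for a human transcript may bind the rhesus transcript weakly, so a low level was not read as absence, and levels of different genes were not compared. In tissue punches, fewer cells of a type and less RNA per cell cannot be told apart.

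Wnt ligands are lipid-modified secreted glycoproteins that bind Frizzled receptors. In the canonical branch, a ligand joins a Frizzled to the co-receptor LRP5 or LRP6, Dishevelled (DVL) is recruited, and the complex of AXIN, APC and GSK3 that otherwise marks β-catenin (CTNNB1) for destruction is held back, so that β-catenin enters the nucleus and acts with TCF/LEF factors in place of TLE co-repressors. Other branches act through planar polarity proteins or calcium. In the adult brain the pathway is known for roles in synapse upkeep, vascular barrier properties and the transcriptional identity of thalamic neurons, in which the TCF family member TCF7L2 is a standard marker.

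TCF7L2 lay between 11.78 and 13.00 and the vesicular glutamate transporter SLC17A6, another marker of thalamic relay neurons, between 10.33 and 11.54 over the 10 arrays. Of the other 4 listed markers of these neurons, SLC17A7 lay between 7.69 and 8.47, LHX2 between 6.03 and 6.64, PRKCD between 5.72 and 6.41 and GBX2 between 4.87 and 6.45. With no detection calls, these values do not show which of the 6 transcripts were present. The replicate number was a large source of difference: 56.6% of all genes were called between replicate 2 and replicate 1, with 25.4% higher and 31.1% lower in replicate 2. The replicate 2 arrays had an XIST level of 9.86 to 10.34, against 8.96 and 9.60 on the replicate 1 arrays of Centre Median and Pulvinar and 6.70 to 7.22 on the other 3 replicate 1 arrays. The Y-linked RPS4Y1 ran the opposite way, so the replicate 1 arrays did not share these marks of sex. The actin probe sets near the 3′ and the 5′ end of the transcript, a sign of RNA integrity, differed by 1.15 to 1.64 on the replicate 2 arrays and by -0.09 to 1.22 on the replicate 1 arrays. Replicate 2 of Medial Thalamus stood apart from the other 9 arrays by TTR and some other choroid plexus and meningeal transcripts, as given beside the Frizzled genes.

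A nucleus was set against the mean of the other 4, all 5 were compared by a moderated F test, and the 10 pairs were compared directly, with limma over all genes and Benjamini-Hochberg adjustment. Genes with an adjusted p under 0.05 count as called. Without a replicate block, no Wnt gene was called among the 5 nuclei, in any nucleus against the others or in any direct pair. All genes were called in 0% of cases in these comparisons, except for 0.0251% in Centre Median and 0.0167% in at least 1 direct pair. At an unadjusted p under 0.05 the same fit listed 0 of 50 Wnt genes by the F test (0.719% of all genes), 0 in Anterior Thalamus (0.301%), 1 in Centre Median (TLE1; 0.995%), 1 in Medial Thalamus (FZD7; 1.22%), 0 in Pulvinar (0.284%), 1 in Ventral Thalamus (WIF1; 1.57%) and 4 in at least 1 direct pair (4.28%). The replicate numbers were taken to pair the arrays across nuclei because replicate differences correlated between nuclei. That correlation cannot show whether arrays of the same number shared a processing run or, for replicate 2, an animal. The replicate 1 arrays did not share the marks of sex given above, so that number does not stand for a single animal. The fit that took the number as a block called 1 Wnt gene, WIF1. It was called in Ventral Thalamus against the other nuclei, where 0.527% of all genes were called and 0.117% were called lower. It was also called in Medial Thalamus against Ventral Thalamus, where 1.08% were called and 0.201% were called higher. No other Wnt gene was called in any direct pair, against 1.3% of all genes in at least 1 pair.

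In the blocked fit no Wnt gene was called among the 5 nuclei (0.393% of all genes), in Centre Median (0.176%), in Medial Thalamus (0.159%), in Anterior Thalamus (0%) or in Pulvinar (0%). The direct pairs other than Medial against Ventral Thalamus likewise held no called Wnt gene. Their share of all genes called was 0.0752% for Anterior Thalamus against Centre Median, 0.0167% for Anterior against Ventral Thalamus, 0.0752% for Centre Median against Medial Thalamus, 0.092% for Centre Median against Pulvinar, 0.368% for Centre Median against Ventral Thalamus and 0.0502% for Medial Thalamus against Pulvinar, and 0% for the other 3 pairs. At an unadjusted p under 0.05 the F test listed 9 Wnt genes (9.68% of all genes): WIF1, WNT5A, TLE4, APC, TLE5, FZD1, TLE1, WNT7A and FZD7. The same threshold listed 4 Wnt genes in Anterior Thalamus (5.75% of all genes), 4 in Centre Median (5.92%), 9 in Medial Thalamus (10.3%), 5 in Pulvinar (3.73%), 6 in Ventral Thalamus (11.9%) and 22 in at least 1 direct pair (32.4%). The median difference of the 50 genes from the other nuclei was 0.00 in Anterior Thalamus, -0.03 in Centre Median, 0.03 in Medial Thalamus, 0.00 in Pulvinar and -0.01 in Ventral Thalamus. By mean, 32 of the 50 genes were above the other nuclei in Medial Thalamus, where 49.8% of all genes were, and 15 in both replicate sets (24.2% of all genes). The roles there ran in different directions, with medians of 0.16 for the Frizzled genes, 0.07 for the ligands and -0.05 for the nuclear genes.

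The distance between the highest and the lowest nucleus mean of a Wnt gene had a median of 0.26 and a range of 0.09 to 1.32, against a median of 0.23 over all genes. On the probe sets used it reached 1 for WIF1 and WNT5A (4% of the Wnt genes and 0.844% of all genes). The same nucleus was highest in both replicate sets for 8 of the 50 genes, against 24.8% of all genes, and the same nucleus was lowest for 13, against 21.4%. WNT7A was the only Wnt gene for which both held. A nucleus whose 2 arrays did not overlap the other 8 was found for 3 Wnt genes. TLE1 lay above on both Centre Median arrays (0.861% of all genes), FZD1 lay below on both Ventral Thalamus arrays (0.861%), and FRZB lay below on both Anterior Thalamus arrays (0.426%).

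**Figure D1:**
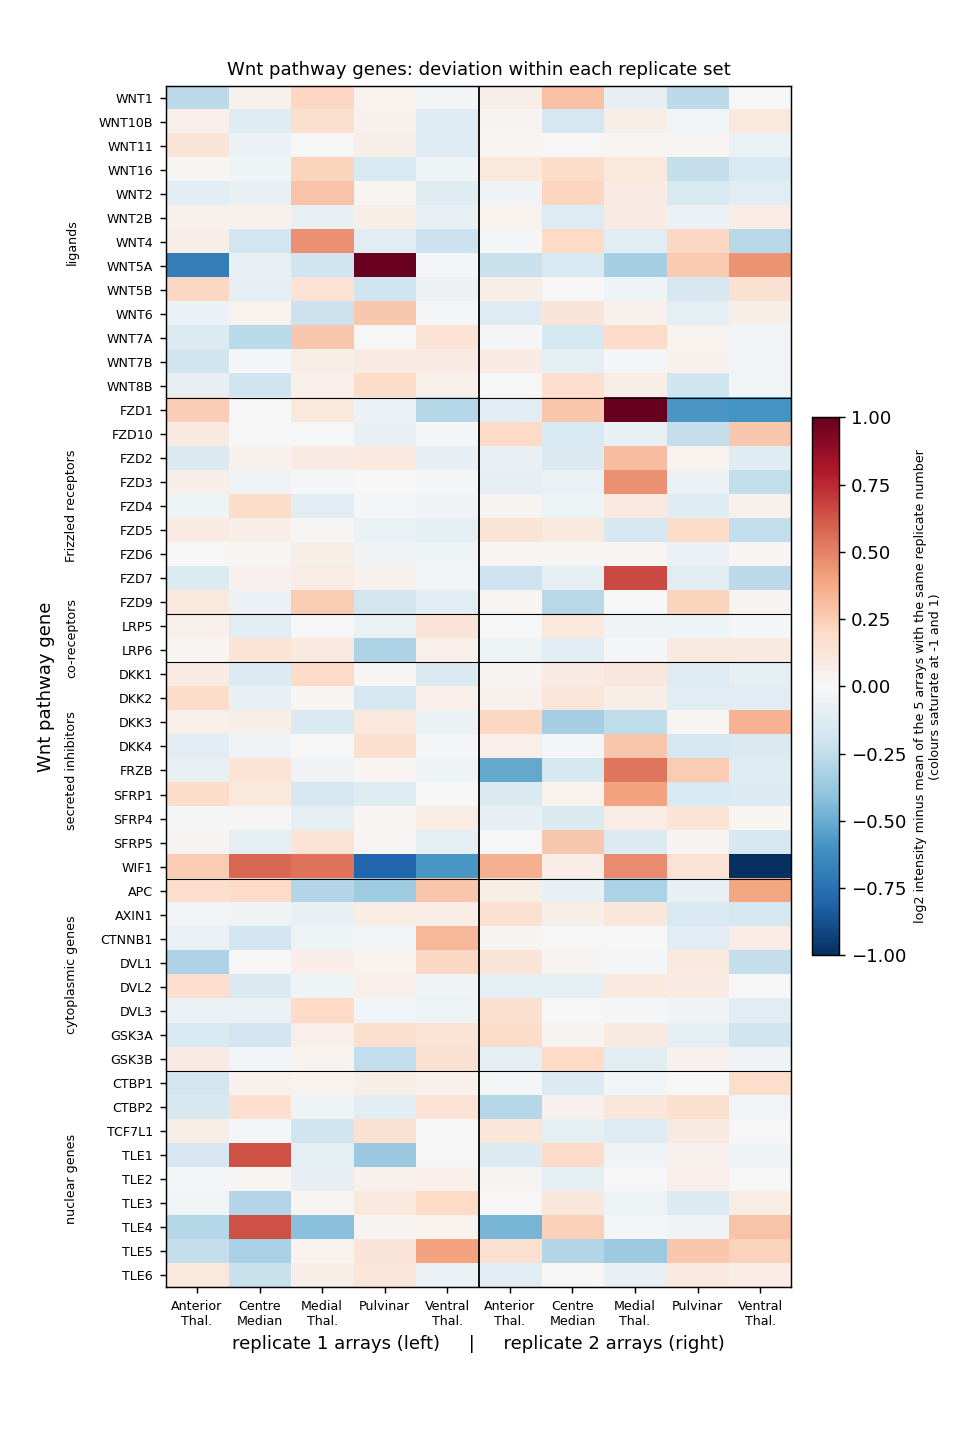
Each cell is the log2 intensity of a Wnt pathway gene (rows, grouped by role) on an array (columns), minus the mean of the 5 arrays with the same replicate number; colours saturate at -1 and 1. WIF1 is low in Ventral Thalamus on both sides and in Pulvinar on the replicate 1 side, and FZD1, FZD7, FZD3 and FRZB are high in Medial Thalamus on the replicate 2 side.

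The secreted inhibitors held the largest difference. WIF1, the Wnt inhibitory factor that binds Wnt ligands outside the cell, was lower in Ventral Thalamus. It measured 4.63 and 4.86 in replicates 1 and 2 of Ventral Thalamus, against 5.47 and 6.26 in Anterior Thalamus, 5.79 and 5.97 in Centre Median, 5.76 and 6.37 in Medial Thalamus and 4.42 and 6.04 in Pulvinar. Both Ventral Thalamus arrays were low, but replicate 1 of Pulvinar was lower still, so the groups overlapped. The Ventral Thalamus mean of 4.74 ± 0.16 (SD, n = 2) was 2.02-fold below the mean of the other nuclei, 5.76, a log2 difference of -1.02. With the replicate block, limma gave this difference an SE of 0.198 and an adjusted p of 0.0447, and without the block an SE of 0.391 and an adjusted p of 1.00. Within the replicate sets the difference was -0.73 in replicate 1 and -1.30 in replicate 2.

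By nucleus mean, WIF1 ran from Medial Thalamus (6.06 ± 0.43) through Centre Median (5.88 ± 0.13), Anterior Thalamus (5.86 ± 0.56) and Pulvinar (5.23 ± 1.15) to Ventral Thalamus (4.74 ± 0.16; SD, n = 2 each). Medial Thalamus exceeded Ventral Thalamus by 1.32 in the blocked fit (SE 0.251, adjusted p = 0.0289). Centre Median exceeded it by 1.13 (adjusted p = 0.0896) and Anterior Thalamus by 1.12 (adjusted p = 0.157), and no pair of neighbours in this order was called. Only 1 probe set measured WIF1, so no other probe set could be set beside it, and its mean of 5.56 over all arrays lay below the median over all genes, 6.99. The call was made without either Medial Thalamus array and without either Pulvinar array, at adjusted p between 0.00197 and 0.0406, and was lost without any of the other 6 arrays, the highest adjusted p being 0.588 without replicate 2 of Ventral Thalamus. It was also lost with the actin 3′ to 5′ difference as a covariate (-1.39, adjusted p = 0.195), with quantile normalisation (adjusted p = 0.0804) and without the variance trend (adjusted p = 0.0798).

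Several markers of other cell types moved with WIF1 in Ventral Thalamus. The astrocyte filament GFAP was 10.08 and 9.99 in Ventral Thalamus, against 10.17 to 12.44 in the other nuclei, and was called lower by 1.11 on the log2 scale (blocked fit, adjusted p = 0.0378). Of the 7 astrocyte markers measured, 4 were below and 3 above the other nuclei there, and their summed intensity was 7504 and 9705 in Ventral Thalamus, against 6276 to 8148 in replicate 1 and 9867 to 13544 in replicate 2 of the other nuclei. All 8 oligodendrocyte markers measured were above the other nuclei, with a summed intensity of 15901 and 19127 against 8017 to 12768 and 11367 to 15715. The 4 measured genes listed as GABAergic neuron markers (GAD1, GAD2, PVALB and SST) were above the other nuclei in both replicate sets. Their median difference was 0.76 and their summed intensity 3301 and 6242, against 1427 to 4098 and 1935 to 3013. GAD1 and PVALB were called in Medial Thalamus against Ventral Thalamus, the other comparison in which WIF1 was called. Their differences in the blocked fit were -1.24 (adjusted p = 0.0178) and -2.34 (adjusted p = 0.0446). Which cells expressed PVALB was not tested, so these values do not measure the content of inhibitory neurons. Of the 6 blood vessel markers 4 were above in both sets (median difference 0.15). The 9 meningeal and choroid plexus markers were all below by mean and 5 were below in both sets. Over all comparisons of nuclei in the blocked fit, the oligodendrocyte markers CNP, MAG and MOG and the relay neuron marker SLC17A6 were also called. No marker of microglia, blood vessels, or meninges and choroid plexus was called. The part of these cell type markers in the WIF1 result was not tested. The actin 3′ to 5′ difference was highest in Ventral Thalamus in both replicate sets, at 1.22 and 1.64, and the WIF1 difference with it as a covariate is the -1.39 given above.

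**Figure D2:**
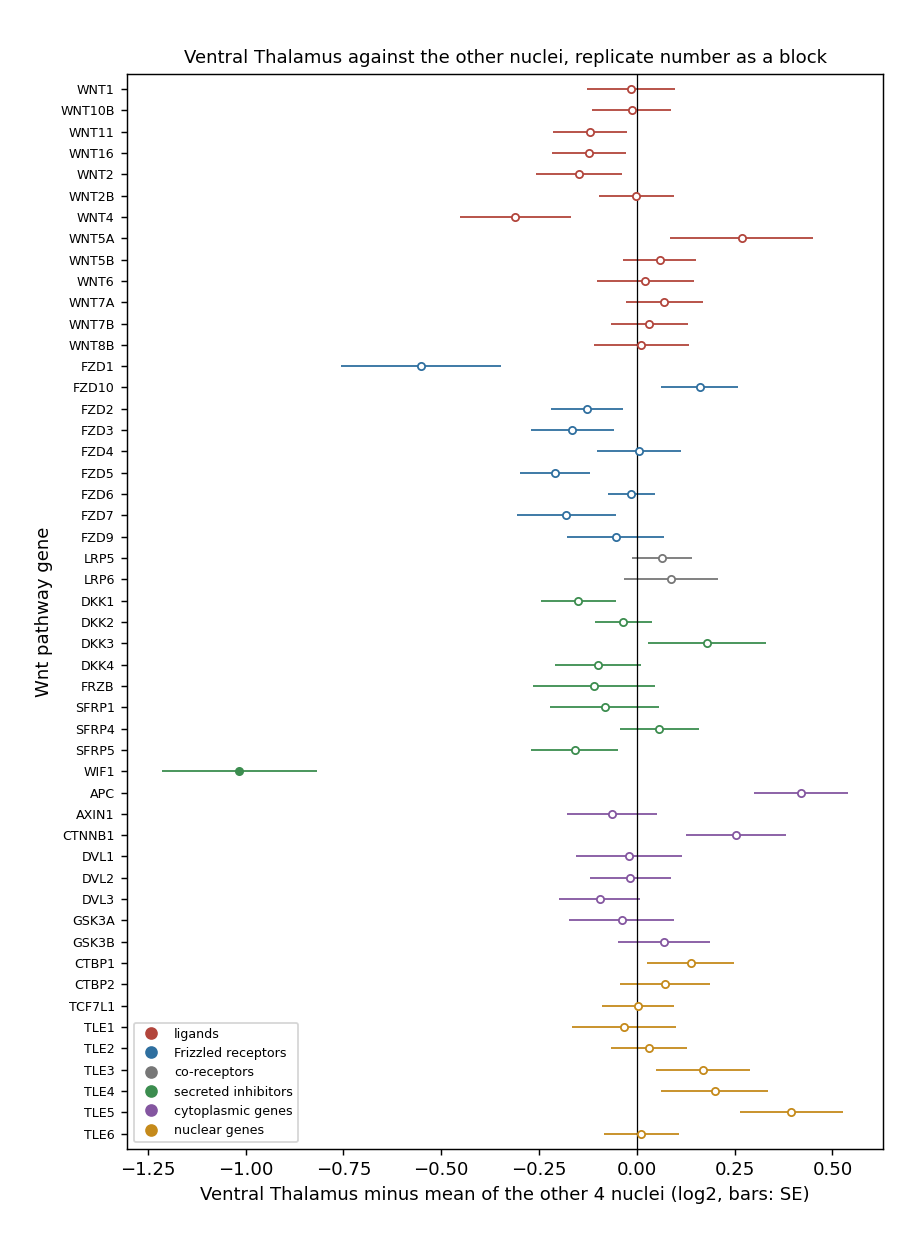
For each Wnt pathway gene (rows), the point is the log2 difference of Ventral Thalamus minus the mean of the other 4 nuclei in the blocked fit, the bar is its SE and the colour its role; a filled point is called at an adjusted p under 0.05. WIF1 at -1.02 is the only filled point.

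The other secreted inhibitors were Dickkopf proteins and secreted Frizzled-related proteins. The Dickkopf proteins DKK1, DKK2 and DKK4 bind LRP5 and LRP6, while DKK3 is a divergent family member that is not a classical LRP inhibitor. DKK3 measured 10.69 and 11.52 in Ventral Thalamus, against 10.80 and 11.38 in Anterior Thalamus, 10.81 and 10.84 in Centre Median, 10.61 and 10.92 in Medial Thalamus and 10.86 and 11.19 in Pulvinar. Ventral Thalamus was highest in replicate 2 and not in replicate 1, and its nucleus means spanned 0.34. DKK1 lay between 5.88 and 6.46 and was highest in Medial Thalamus in both sets, DKK2 lay between 4.27 and 4.67 and was lowest in Pulvinar in both sets, and DKK4 lay between 5.41 and 6.35. The spans of their nucleus means were 0.27, 0.25 and 0.22.

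The secreted Frizzled-related proteins carry a Frizzled-like ligand binding domain and act as decoys. FRZB, one of them, measured 6.49 and 6.42 in Anterior Thalamus, against 6.70 and 6.77 in Centre Median, 6.53 and 7.47 in Medial Thalamus, 6.58 and 7.19 in Pulvinar and 6.51 and 6.81 in Ventral Thalamus. Both Anterior Thalamus arrays were below the other 8, by a margin of 0.02 in replicate 1. The blocked difference was -0.36 (SE 0.157, adjusted p = 0.849), and -0.35 on the other FRZB probe set. SFRP1 lay between 7.21 and 7.95, SFRP4 between 6.81 and 7.10 and SFRP5 between 5.997 and 6.49, with spans of the nucleus means of 0.25, 0.15 and 0.22, and SFRP5 was lowest in Ventral Thalamus in both sets. Of the 9 secreted inhibitors, 7 were below the other nuclei in Ventral Thalamus and 7 were above in Medial Thalamus by mean, where 46.6% and 49.8% of all genes were above. In both replicate sets, 5 were below in Ventral Thalamus (30.7% of all genes) and 4 above in Medial Thalamus (24.2%).

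Frizzled genes encode the receptors that bind Wnt ligands through an extracellular cysteine-rich domain. FZD1 measured 6.41 and 7.74 in replicates 1 and 2 of Medial Thalamus, against 6.54 and 6.61 in Anterior Thalamus, 6.29 and 7.01 in Centre Median, 6.24 and 6.15 in Pulvinar and 6.01 and 6.13 in Ventral Thalamus. Replicate 2 of Medial Thalamus was above every other array, replicate 1 was not, and both Ventral Thalamus arrays were below the other 8. The Medial Thalamus mean of 7.07 ± 0.94 (SD, n = 2) exceeded the mean of the other nuclei by 0.70 in the blocked fit (SE 0.205, adjusted p = 0.225), as 0.14 in replicate 1 and 1.26 in replicate 2. Medial Thalamus exceeded Ventral Thalamus by 1.00 (adjusted p = 0.085). A second FZD1 probe set gave 0.17 in Medial Thalamus but did not show the high replicate 2 value. It measured 6.85 and 6.14 there, highest within replicate 1 and below Anterior Thalamus (6.27) in replicate 2.

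FZD7, FZD3 and FZD2 had the same shape; they were picked after their values were seen. FZD7 measured 5.16 and 5.99 in Medial Thalamus, against 4.94 to 5.24 on the other 8 arrays. FZD3 measured 4.65 and 5.39 in Medial Thalamus, against 4.62 to 4.87 on the other 8 arrays. In both, replicate 2 of Medial Thalamus was the highest array. For FZD7 the Medial Thalamus difference was 0.46 (SE 0.126, adjusted p = 0.192), as 0.09 in replicate 1 and 0.83 in replicate 2, and a second FZD7 probe set gave 0.47. The difference was 0.28 for FZD3 (adjusted p = 0.368) and 0.24 for FZD2 (adjusted p = 0.36), whose arrays lay between 5.35 and 5.93.

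Replicate 2 of Medial Thalamus also stood apart by some transcripts of choroid plexus and meninges. The choroid plexus transport protein TTR measured 12.19 there, against 7.63 in replicate 1 of Medial Thalamus and 7.17 to 8.41 in the other nuclei. The matrix protein OGN measured 6.50 there, against 4.90 to 5.79 on the other 9 arrays. The summed intensity of the 9 markers of these tissues was 7571, against 1953 in replicate 1 of Medial Thalamus and 1975 to 2846 in the other nuclei. TTR made most of that excess: the sum of the other 8 markers was 2915, against 1755 in replicate 1 of Medial Thalamus and 1791 to 2557 in the other nuclei. The array was the highest of the 10 for 5 of the 9 markers, and 3 of the 9 were above the other nuclei in both replicate sets. KL, a choroid plexus marker, stayed between 4.37 and 4.88 on all arrays. With both Medial Thalamus arrays, neither FZD1 nor FZD7 was called. With 1 of them left out, the blocked difference in Medial Thalamus is that of the other array. Without replicate 2 it was 0.14 for FZD1 and 0.09 for FZD7, and without replicate 1 it was 1.26 and 0.83. Within replicate 2, FRZB and SFRP1 were also highest in Medial Thalamus, at 7.47 and 7.76 on the probe sets used. The other FRZB probe set was likewise highest there, at 6.76. The other SFRP1 probe sets were not, with 6.34 against 6.36 in Anterior Thalamus and 4.51 against 4.66 in Centre Median. The part of choroid plexus and meningeal tissue in the Frizzled, FRZB and SFRP1 values was not tested.

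**Figure D3:**
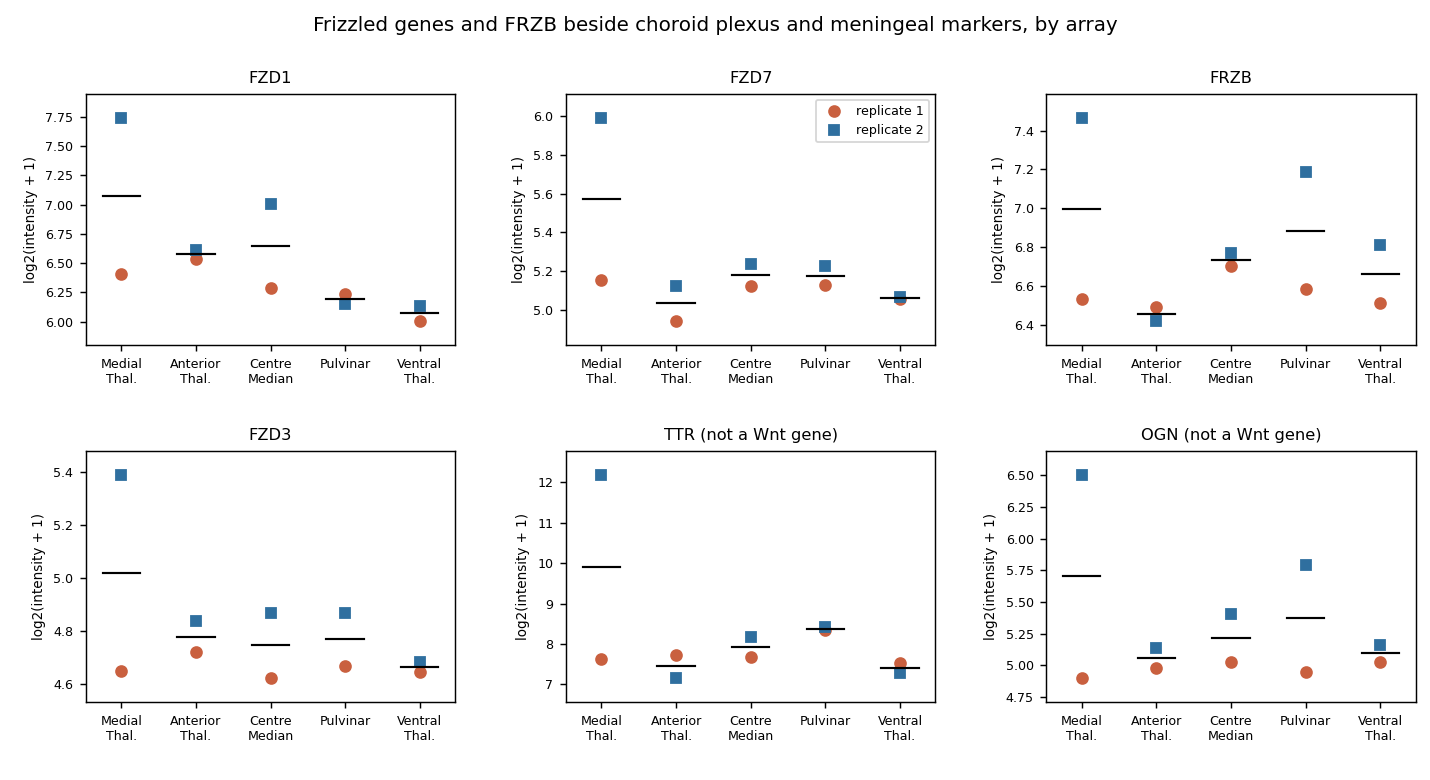
Log2(intensity + 1) of 3 Frizzled genes, FRZB and the choroid plexus and meningeal markers TTR and OGN by nucleus (x axis, Medial Thalamus first); circles are replicate 1, squares replicate 2 and bars the mean of the 2 arrays. Replicate 2 of Medial Thalamus is the highest array in all 6 panels, from 5.39 for FZD3 to 12.19 for TTR. The genes other than FZD1 were picked after their values were seen. That array was the highest for 5 of the 9 listed choroid plexus and meningeal markers. A second FZD1 probe set, not drawn, was not highest there (6.14).

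The remaining Frizzled genes varied less between nuclei on the probe sets used, but not on the second probe set of FZD5. That probe set measured 6.52 and 5.42 in Centre Median, against 4.67 to 4.93 on the other 8 arrays, so both Centre Median arrays lay above. Its Centre Median difference was 1.12, larger in size than that of WIF1 in Ventral Thalamus, whereas the FZD5 probe set used gave 0.10. It was not used because its mean of 5.08 over all arrays was below the 5.26 of the other, and single probe sets were not tested. FZD4, the receptor for the norrin ligand of retinal and brain vessels, measured 8.49 and 7.81 in Centre Median, against 8.20 and 7.95 in Medial Thalamus, 8.27 and 7.89 in Anterior Thalamus, 8.30 and 7.74 in Pulvinar and 8.28 and 7.90 in Ventral Thalamus. All replicate 1 arrays lay above all replicate 2 arrays, and the nucleus means spanned 0.13. FZD6 had the smallest span of the Frizzled genes, 0.086. It measured 4.67 and 4.62 in Medial Thalamus, against 4.62 and 4.61 in Anterior Thalamus, 4.63 and 4.61 in Centre Median, 4.58 and 4.54 in Pulvinar and 4.57 and 4.62 in Ventral Thalamus. FZD5 lay between 4.71 and 5.64 on the probe set used, FZD9 between 7.05 and 7.71 and FZD10 between 5.23 and 5.85. On the probe sets used, FZD5 was lowest in Ventral Thalamus and FZD10 in Pulvinar in both sets. In Ventral Thalamus 7 of the 9 Frizzled genes were below the other nuclei by mean, with a median of -0.13, and 5 of the 9 in both sets (30.7% of all genes).

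The co-receptors LRP5 and LRP6 relay the canonical signal and differed little between nuclei. LRP6 measured 8.39 and 8.0001 in Anterior Thalamus, 8.50 and 7.94 in Centre Median, 8.46 and 8.03 in Medial Thalamus, 8.06 and 8.14 in Pulvinar and 8.42 and 8.14 in Ventral Thalamus, with nucleus means within 0.18. On this probe set, Pulvinar was the only nucleus whose replicate 2 array was above its replicate 1 array. On the other LRP6 probe set, replicate 2 was above replicate 1 in every nucleus. LRP5 lay between 4.66 and 5.16, with nucleus means within 0.11.

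Among the 13 ligands, WNT5A, the main ligand of the non-canonical branches, had the largest nucleus difference. It measured 8.53 and 9.63 in replicates 1 and 2 of Pulvinar, against 6.85 and 9.15 in Anterior Thalamus, 7.48 and 9.21 in Centre Median, 7.35 and 9.04 in Medial Thalamus and 7.53 and 9.82 in Ventral Thalamus. Pulvinar was highest in replicate 1 and second to Ventral Thalamus in replicate 2. Pulvinar exceeded the other nuclei by 0.78 in the blocked fit (SE 0.183, adjusted p = 0.686), as 1.23 in replicate 1 and 0.33 in replicate 2. It exceeded Anterior Thalamus, the lowest nucleus by mean, by 1.08. The replicate 1 array of Pulvinar was also the one nearest to the replicate 2 arrays in XIST (9.60) and RPS4Y1 (7.22), and with replicate 1 split by these genes the difference was 0.53 (adjusted p = 1.00). A second WNT5A probe set gave 0.42 in Pulvinar and 0.42 in Ventral Thalamus, where the probe set used gave 0.27. Leaving out 1 array at a time moved the Pulvinar difference between 0.23 and 1.33.

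WNT7A, a ligand that acts on brain vessels and synapses, measured 7.22 and 6.83 in Medial Thalamus, against 6.81 and 6.62 in Anterior Thalamus, 6.68 and 6.46 in Centre Median, 6.95 and 6.67 in Pulvinar and 7.09 and 6.61 in Ventral Thalamus. Medial Thalamus was highest and Centre Median lowest in both replicate sets. The difference was 0.29 in Medial Thalamus (SE 0.0975, adjusted p = 0.293), as 0.33 in replicate 1 and 0.24 in replicate 2, and -0.28 in Centre Median (adjusted p = 0.584). WNT6 measured 9.72 and 9.21 in Pulvinar, against 9.39 and 9.18 in Anterior Thalamus, 9.48 and 9.44 in Centre Median, 9.23 and 9.35 in Medial Thalamus and 9.43 and 9.37 in Ventral Thalamus. Its highest array was in Pulvinar in replicate 1 and in Centre Median in replicate 2, and its nucleus means spanned 0.18.

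The other ligands had nucleus means within 0.42 of each other. WNT4, which was lowest in Ventral Thalamus in both sets, lay between 5.13 and 6.28, and WNT16, lowest in Pulvinar in both sets, between 5.54 and 6.21. WNT5B, the close relative of WNT5A, lay between 5.23 and 6.09 and was lowest in Pulvinar in both sets. WNT11, another ligand of the non-canonical branches, lay between 7.003 and 7.58 and was lowest in Ventral Thalamus in both sets. WNT2 and WNT2B lay between 6.97 and 7.96 and between 5.85 and 6.22. WNT7B, which acts with WNT7A on brain vessels, lay between 5.72 and 6.50. WNT1, known for patterning the midbrain, lay between 4.64 and 5.19, WNT8B between 5.92 and 6.77 and WNT10B between 6.99 and 8.30. In Medial Thalamus 11 of the 13 ligands were above the other nuclei by mean, with a median of 0.07, but 5 of the 13 in both replicate sets (24.2% of all genes).

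**Figure D4:**
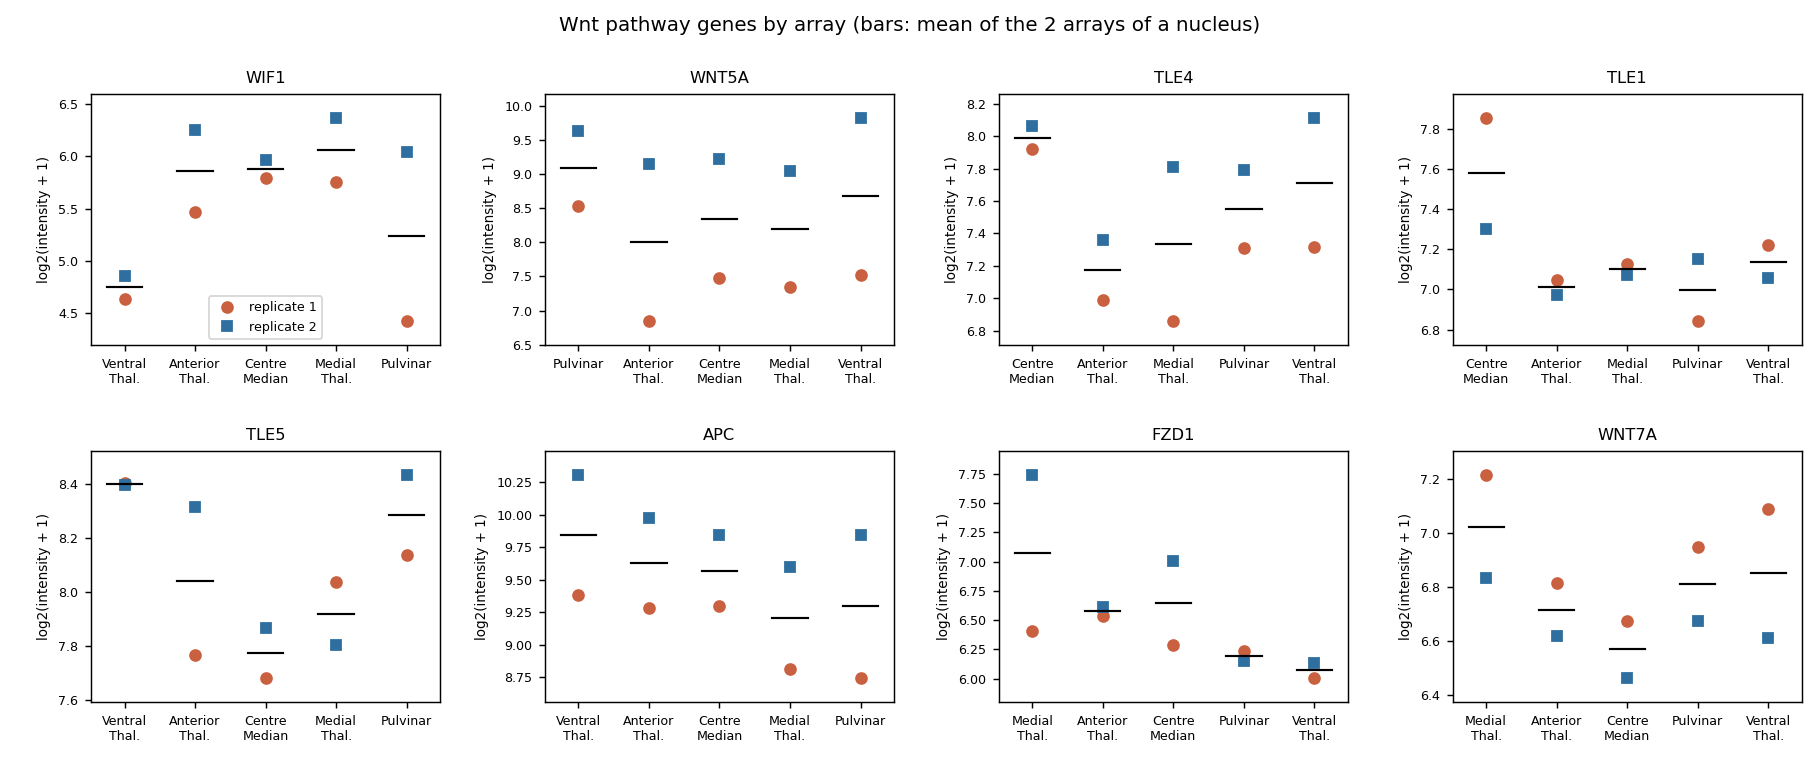
Log2(intensity + 1) of the 8 Wnt pathway genes with the smallest F test p, by nucleus (x axis, the nucleus with the described difference first); circles are replicate 1, squares replicate 2 and bars the mean of the 2 arrays. The replicate 2 squares of WNT5A all lie above its replicate 1 circles, TLE1 is highest in Centre Median in both sets and WIF1 is low on both Ventral Thalamus arrays.

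The cytoplasmic genes encode Dishevelled and the β-catenin destruction complex. APC, the scaffold of that complex, measured 9.39 and 10.31 in Ventral Thalamus, against 9.28 and 9.98 in Anterior Thalamus, 9.30 and 9.84 in Centre Median, 8.81 and 9.60 in Medial Thalamus and 8.75 and 9.84 in Pulvinar. Ventral Thalamus was highest within each replicate set. The difference was 0.42 in the blocked fit (SE 0.121, adjusted p = 0.165), and Medial Thalamus was below Ventral Thalamus, with a difference of -0.64 (adjusted p = 0.0624). The 4 other APC probe sets gave 0.28, -0.10, -0.09 and 0.15 in Ventral Thalamus, so their directions differed. Without the block and without replicate 2 of Ventral Thalamus the APC difference was -0.040.

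CTNNB1, the β-catenin gene, measured 10.67 and 11.44 in Ventral Thalamus, against 10.28 and 11.40 in Anterior Thalamus, 10.15 and 11.38 in Centre Median, 10.29 and 11.38 in Medial Thalamus and 10.31 and 11.26 in Pulvinar. Ventral Thalamus was highest in both sets, by margins over the next nucleus smaller than the difference between replicate numbers, and the nucleus means spanned 0.29. The kinase genes GSK3A and GSK3B, whose products phosphorylate β-catenin, lay between 8.38 and 9.36 and between 7.28 and 8.14. The scaffold AXIN1 lay between 7.95 and 8.27. The Dishevelled genes DVL1, DVL2 and DVL3 lay between 6.78 and 7.75, 7.13 and 7.56, and 6.97 and 7.38. Nucleus means of these 6 genes were within 0.19 of each other.

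The nuclear genes encode the TCF factor TCF7L1 and the TLE and CtBP co-repressors. TLE4 and TLE1, Groucho-type co-repressors, were highest by mean in Centre Median. TLE4 measured 7.92 and 8.06 in Centre Median, against 6.86 and 7.81 in Medial Thalamus, 6.99 and 7.36 in Anterior Thalamus, 7.31 and 7.79 in Pulvinar and 7.31 and 8.11 in Ventral Thalamus. Centre Median was highest in replicate 1 and second to Ventral Thalamus in replicate 2. Its difference from the other nuclei was 0.55 (SE 0.137, adjusted p = 0.22), as 0.80 in replicate 1 and 0.29 in replicate 2, while the other TLE4 probe sets gave 0.09 and 0.10.

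TLE1 measured 7.85 and 7.30 in Centre Median, against 7.13 and 7.07 in Medial Thalamus, 7.05 and 6.97 in Anterior Thalamus, 6.84 and 7.15 in Pulvinar and 7.22 and 7.06 in Ventral Thalamus. Both Centre Median arrays were above the other 8. The difference was 0.52 (SE 0.132, adjusted p = 0.236), as 0.79 in replicate 1 and 0.24 in replicate 2, and the other TLE1 probe sets gave 0.03 and 0.30. TLE5, a short family member that lacks the repeats of the full-length TLE proteins, was lowest by mean in Centre Median and highest in Ventral Thalamus. It measured 8.40 and 8.40 in Ventral Thalamus, against 7.76 and 8.32 in Anterior Thalamus, 7.68 and 7.87 in Centre Median, 8.04 and 7.80 in Medial Thalamus and 8.14 and 8.43 in Pulvinar. The Ventral Thalamus difference was 0.39 (adjusted p = 0.236) and the Centre Median difference -0.39 (adjusted p = 0.571), with replicate 2 of Pulvinar above both Ventral Thalamus arrays.

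CTBP1, a co-repressor that binds TCF factors and APC, measured 9.80 and 9.64 in Ventral Thalamus, against 9.57 and 9.45 in Anterior Thalamus, 9.80 and 9.32 in Centre Median, 9.79 and 9.44 in Medial Thalamus and 9.81 and 9.46 in Pulvinar, with nucleus means within 0.21. Its relative CTBP2 lay between 8.36 and 9.14 and was lowest in Anterior Thalamus in both sets. TCF7L1, which mostly represses Wnt targets, lay between 6.42 and 7.31 and was lowest in Medial Thalamus in both sets. TLE2, TLE3 and TLE6 lay between 8.05 and 8.36, 7.74 and 8.23, and 5.37 and 5.72, with TLE6 highest in Pulvinar in both sets. In Ventral Thalamus 8 of the 9 nuclear genes were above the other nuclei by mean, with a median of 0.07, and 4 of the 9 in both sets (28.9% of all genes).

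Replicate 2 and replicate 1 also differed for the Wnt genes. Of the 50 genes, 32 were called between replicate 2 and replicate 1 in the blocked fit, 12 higher and 20 lower. The shares of all genes were those given above for that comparison. Replicate 2 and replicate 1 arrays did not overlap for 21 genes (39.8% of all genes), 6 of them higher in replicate 2 (18.1%) and 15 lower (21.7%). For 25 of the 50 the replicate difference was larger than the span of the nucleus means, which is near the share over all genes, 51.7%. Its range was from -0.97 for WNT10B, which lay between 6.99 and 7.27 in replicate 2 and between 8.01 and 8.30 in replicate 1, to 1.82 for WNT5A (adjusted p = 1.38e-06), which lay between 9.04 and 9.82 in replicate 2 and between 6.85 and 8.53 in replicate 1. By mean, 12 of the 13 ligands were lower in replicate 2, as were 56.2% of all genes. On the probe sets used, CTNNB1 was higher in replicate 2 by 1.03 (adjusted p = 6.21e-06) and APC by 0.81 (adjusted p = 2.42e-05). GSK3A was lower, with a difference of -0.62 (adjusted p = 0.000359). The APC direction depended on the probe set. The brightest other APC probe set was likewise higher in replicate 2 in every nucleus. Another was lower in every nucleus, for example 7.10 and 6.70 in replicates 1 and 2 of Centre Median, and the rest were mixed. Whether the sets of arrays were processed apart is not given in the sources used here, and animal, sex marks, actin ratio and processing cannot be told apart in the replicate difference.

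**Figure D5:**
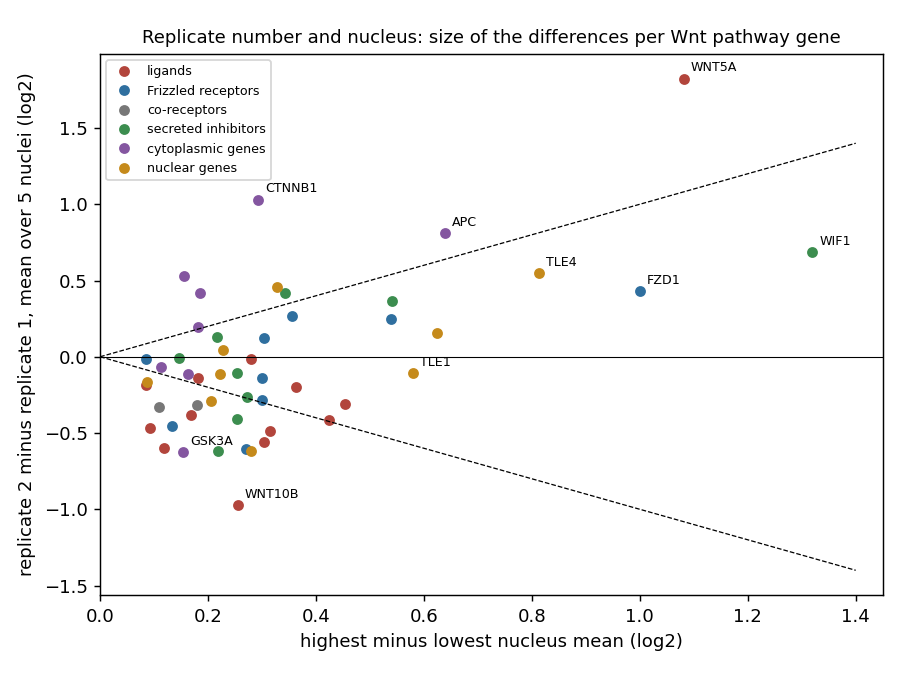
Each point is a Wnt pathway gene, coloured by role: the x axis is the distance between its highest and lowest nucleus mean (log2) and the y axis the mean of replicate 2 minus replicate 1 over the 5 nuclei (log2); dashed lines mark equal size. The 25 genes outside the dashed lines have a replicate difference larger than their nucleus span, and WNT5A (1.08 across, 1.82 up) and WIF1 (1.32 across, 0.68 up) have the widest nucleus spans.

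The other genes of the pathway were taken from 3 lists. Of 24 listed membrane and secreted genes 14 were measured, and 1 was called in each fit, TPBG, a membrane glycoprotein that dampens canonical Wnt signalling. TPBG measured 7.76 and 7.55 in Centre Median, against 6.22 and 6.51 in Medial Thalamus, 5.83 and 5.84 in Anterior Thalamus, 6.09 and 6.18 in Pulvinar and 6.23 and 5.96 in Ventral Thalamus. Its Centre Median arrays were above the other 8 and its Anterior Thalamus arrays below, with a Centre Median difference of 1.55 (adjusted p = 0.0178 without the block). LGR4, a receptor for R-spondins, and WLS, which carries Wnt proteins to the cell surface, came next by the F test (adjusted p = 0.403 and 0.411). LGR4 lay between 4.83 and 7.62 and WLS between 7.57 and 8.52.

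Of 35 listed cytoplasmic and nuclear genes 27 were measured, and CSNK1A1 was called in the blocked fit only. This casein kinase primes β-catenin for GSK3. It measured 8.69 and 9.64 in Medial Thalamus, against 9.61 and 10.12 in Ventral Thalamus, a difference of -0.69 (adjusted p = 0.0489). LEF1, a TCF family factor, measured 8.58 and 9.29 in Centre Median, against 7.10 and 8.68 in Medial Thalamus, 7.49 and 8.34 in Anterior Thalamus, 8.10 and 9.25 in Pulvinar and 7.97 and 8.22 in Ventral Thalamus. Centre Median was highest in both replicate sets, with a difference of 0.79 (adjusted p = 0.165; F test adjusted p = 0.12). DACT1, a Dishevelled-binding antagonist, lay between 4.72 and 5.39 (F test adjusted p = 0.396).

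Of 29 listed planar polarity and calcium genes 24 were measured, and PLCB4 was called in the blocked fit only. It encodes a phospholipase C that releases intracellular calcium. It measured 8.53 and 9.25 in Medial Thalamus, against 8.85 and 9.75 in Anterior Thalamus, 9.26 and 9.74 in Centre Median, 9.37 and 9.90 in Pulvinar and 9.36 and 10.07 in Ventral Thalamus. Medial Thalamus was lowest in both sets, by 0.65 against the other nuclei (adjusted p = 0.0476) and by 0.83 against Ventral Thalamus (adjusted p = 0.0182). CAMK2A, a calcium-dependent kinase, and VANGL1, a planar polarity membrane protein, came next by the F test (adjusted p = 0.442 and 0.492) and lay between 8.11 and 9.06 and between 5.00 and 5.36. In Medial Thalamus 20 of the 27 cytoplasmic and nuclear genes and 19 of the 24 planar polarity and calcium genes were below the other nuclei, where 49.8% of all genes were above. The markers of other cell types in Medial Thalamus moved beside these genes. All 4 measured genes of the GABAergic list, PVALB included, were below in both replicate sets (median difference -0.74). GAD1 was called lower in the blocked fit (-1.06, adjusted p = 0.0317). Of the oligodendrocyte markers 7 of 8 were below in both sets (median difference -0.53). The actin 3′ to 5′ difference was -0.09 and 1.34 in Medial Thalamus, the lowest within replicate 1, against 1.22 and 1.64 in Ventral Thalamus. The part of these markers and of the actin difference in the Medial Thalamus values of PLCB4, CSNK1A1 and the lists was not tested.

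Where a Wnt gene had more than 1 probe set, the probe sets often disagreed. The 21 such genes had 38 other probe sets, which gave 190 differences of a nucleus from the others. Of these, 123 had the sign of the probe set used and 67 the opposite sign.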

How the data were processed

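Intensities of 22283 probe sets on 10 arrays were used as deposited. The authors computed them with RMA, per the submitters' processing notes, on a linear scale; the version and whether the arrays were normalised together are not given in the sources used here. The lowest intensity was 12.0 to 12.3 on replicate 1 arrays and 9.49 to 9.55 on replicate 2 arrays, and array medians were 94.2 to 100.6. The files hold no detection calls. Log2(value + 1) was taken. Probe sets with 1 gene symbol numbered 19065; 68 controls, 1043 probe sets of several genes and 2107 not listed in the annotation were left out. The probe set with the highest mean represented each gene, which left 11963 genes. No low-value filter was applied; 25 of the 50 Wnt genes had a mean below the median over all genes, 6.99.

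limma 3.58.1 in R 4.3.3 fitted 1 coefficient per nucleus with a variance trend to all genes, in 1 version with no block and in another blocked on the replicate number, and p-values were adjusted over all genes in a comparison (Benjamini-Hochberg). The replicate numbers were taken to pair the arrays because differences of replicate 2 from replicate 1 correlated across genes at 0.758 to 0.831 in all 10 pairs of nuclei. The median residual SD was 0.220 without the block and 0.126 with it, on 5 and 4 residual degrees of freedom. The fit was also run on simulated data, drawn with independent noise and a replicate shift per gene. The block was built into those data, so they cannot show whether it suits these arrays. The Wnt genes and lists were chosen with earlier results of these data known. Values on every array are given for called genes, the 8 with the smallest blocked F test p, the highest by mean in each role and those of largest and smallest span within both replicate sets; FZD7, FRZB and FZD3 were added after their values were seen. Alternatives were the block, a block that splits replicate 1 by XIST and RPS4Y1, the actin covariate, quantile normalisation, pseudocounts of 0 and 32, a filter at the median, the mean of all probe sets, no trend and leaving out each array. Figures were drawn with matplotlib 3.10.9 in Python 3.11.15. The number of arrays limits the precision.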

Additional observations from a re-analysis of the deposited data

How the results depend on the processing

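Without the block, no Wnt gene was called under any alternative, with arrays left out included. With the replicate block, the count in Ventral Thalamus against the other nuclei was 1 (WIF1), and 1 with replicate 1 also split by XIST and RPS4Y1 or with pseudocounts of 0 or 32. The block combined with a pseudocount, the filter, the mean of all probe sets or no variance trend was chosen after seeing the data. WIF1 there was -1.02 with the block, -1.11 with the split, -1.04 and -0.59 with the pseudocounts, and its call was lost with the mean of all probe sets (adjusted p = 0.104) and the settings named in the report. The count over the 10 direct pairs with the block was 1, and 1 with the split, with either pseudocount, with no variance trend (all WIF1) and with the filter, which leaves WIF1 out (APC in Medial against Ventral Thalamus), and 2 with the actin covariate (FZD7), which also gave 1 in Medial Thalamus (FZD7, 0.74). Leaving out 1 array at a time with the block gave 0 to 2 Wnt genes by the F test, 0 to 7 over the pairs (5 without replicate 2 of Pulvinar, all WIF1), 0 to 3 in Medial Thalamus and 0 to 2 in Ventral Thalamus, with the WIF1 difference at -1.30 to -0.73; the top of each range except that of the F test came without replicate 1 of Medial Thalamus alone, and for the F test it came without that array (FZD1, FZD7) or without replicate 2 of Pulvinar (WIF1, WNT5A). Counts in Anterior Thalamus, Centre Median and Pulvinar stayed at 0. The APC difference in Ventral Thalamus ran from -0.040 without replicate 2 to 0.88 without replicate 1 of Ventral Thalamus, both without the block. The cause of these changes was not tested. With 2 arrays of a nucleus and no detection calls, changes in dim probe sets are limited by background.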
